A study of Rattus norvegicus with 8 samples.

Results

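The enzymes described here are the 41 genes listed for glycolysis, the tricarboxylic acid (TCA) cycle, gluconeogenesis and the glycerol phosphate shuttle. On the rat arrays, 10410 genes had a probe set of their own. Members were found by gene symbol in the array annotation, and each gene was represented by its probe set with the strongest mean signal. Of the 41, 36 had a probe set of their own, 33 passed the filter on low signals (a mean of at least 100 arbitrary units over the 8 arrays) and 3 did not. The remaining 5, Gapdh, Pkm, Dlat, Fh and G6pc1, had no such probe set, and Gapdh, Pkm and G6pc1 were matched only by probe sets that the annotation also assigns to other genes.

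The samples were primary cultures of semicircular canal duct (SCCD) epithelium, an ion-transporting epithelium of the inner ear, dissected from neonatal Wistar rats of 3 to 5 days and grown on permeable supports. The control group (n = 4) was left untreated and the other group (n = 4) received 100 nM dexamethasone, a synthetic glucocorticoid, with 1 array per sample and no genetic change in either group. The comparison asks how the glucocorticoid altered the transcripts of central carbon metabolism in this epithelium. The length of exposure is not given in the sources used here, and no source says whether the samples came from separate cultures or animals, so that p-values measure only the spread between these samples, which may be technical.

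Glycolysis splits glucose into pyruvate in the cytosol, lactate dehydrogenase interconverts pyruvate and lactate, and the pyruvate dehydrogenase complex carries pyruvate into the TCA cycle of the mitochondria. Gluconeogenesis runs the opposite way, through pyruvate carboxylase and phosphoenolpyruvate carboxykinase, and the glycerol phosphate shuttle hands cytosolic reducing equivalents to the respiratory chain. In liver, glucocorticoids are known for inducing gluconeogenic enzymes, whereas an epithelium that pumps Na+ draws on these pathways for ATP.

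The arrays fell into a first set (replicates 1 and 2 of each group) and a second (replicates 3 and 4) by the scaling of the deposited values: the 2% trimmed mean was 500.1 in the first and between 202 and 336 in the second, and every array was therefore rescaled to 500. Control replicate 3 stood apart, with the lowest deposited mean and a beta-actin 3'/5' ratio, a measure of RNA length, of 13.7 against 8.10 to 9.60 in the rest of its group and 6.17 to 8.07 in the treated group. All 7 epithelial markers were above the level of silent genes on every array (the 95th percentile of 53 probe sets of genes restricted to other tissues, between 103 and 175 units). Of markers of other cell types, the fibroblast collagens Col1a1, Col1a2 and Col3a1 (3 of 7 fibroblast markers), Col2a1 of cartilage (1 of 5), Kdr of endothelium (1 of 4), Cd14 of macrophages (1 of 5) and S100b of Schwann cells (1 of 5) were also above it on all 8 arrays, while Dcn, Lum, Pecam1, Vwf, Cd68, Ptprc and both hair cell markers were above it on 0. The summed fibroblast markers were at 4839 to 5957 in control and 3437 to 5830.4 in dexamethasone. Col1a2 differed by -0.58 on the log2 scale (limma adjusted p = 0.261, and 0.0139 with array set as a blocking factor), Col1a1 by 0.10 and Col3a1 by -0.15. The summed macrophage markers were at 583 to 1051 in control and 854 to 4038 in dexamethasone. Lyz2 was at 3415, 969, 48.8 and 78.4 on dexamethasone replicates 1 to 4, and at 88.5 to 433 in control. Cd14 averaged 278 units in control and 544 in dexamethasone, without overlap (limma adjusted p = 0.0809). Csf1r, also a macrophage marker, averaged 163 units in control and 146 in dexamethasone, with overlap (-0.15 on the log2 scale, limma adjusted p = 0.785). The summed signal of the 4 measured endothelial markers was 832 to 1104 in control and 2656 to 3174 in dexamethasone, but Kdr, a growth factor receptor, carried the difference. Kdr rose (704 to 2763 units on average, 2.00 on the log2 scale, limma adjusted p = 2.98e-05). Flt1 of the same list fell from 182 to 53.6 units, the latter not above the silent level (limma adjusted p = 0.02). Flt1 passed the filter on low signals only through its control arrays. The part of these markers in the results was not tested. The summed epithelial markers were at 41148 to 52445 in control and 39774 to 43778 in dexamethasone, which overlap. Among them, the keratin Krt18 fell (-0.47 on the log2 scale, limma adjusted p = 0.0300). Krt8 differed by -0.33 (limma adjusted p = 0.197, and 0.0393 with array set as a blocking factor), Cldn3 by -0.079 and Epcam by -0.053. Krt19 differed by 0.31, Cdh1 by 0.18 and Cldn4 by 0.14, none with a limma adjusted p under 0.05. The treatment was visible in the glucocorticoid-induced kinase gene Sgk1, which rose from a mean of 370.4 to 3358 units (3.19 on the log2 scale, limma adjusted p = 1.09e-06). In bulk samples, fewer cells of a type and less RNA per cell cannot be told apart.

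Most of these enzyme transcripts were above the silent level, and no member's difference passed the test. Of the 33 tested members, 28 were above the silent level on all 8 arrays, against 75.7% of all tested probe sets. Here and below, shares of all probe sets count every tested probe set of a gene, whereas each member is given by its strongest. Dexamethasone changed 0 of 33 past the threshold (limma, Benjamini-Hochberg adjusted p under 0.05 over all 10368 probe sets tested), against 2.69% of all probe sets (279). At an unadjusted p under 0.05, 6 of 33 members passed (Pfkm, Pfkfb3, Tpi1, Ldhb, Pdha1 and Idh2), beside a background of 16.1%. With array set as a blocking factor, 1 member passed, triosephosphate isomerase (Tpi1), which was lower, beside 5.57% of all probe sets. The log2 fold changes, dexamethasone over control, ran from -0.56 to 0.65 with a median of -0.015, against a median of -0.023 over all tested probe sets. Of the members, 14 were above 0 and 19 below, beside 4762 and 5606 of all tested probe sets. The median size without regard to sign was 0.19, against 0.16 over all probe sets.

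**Figure D1:**
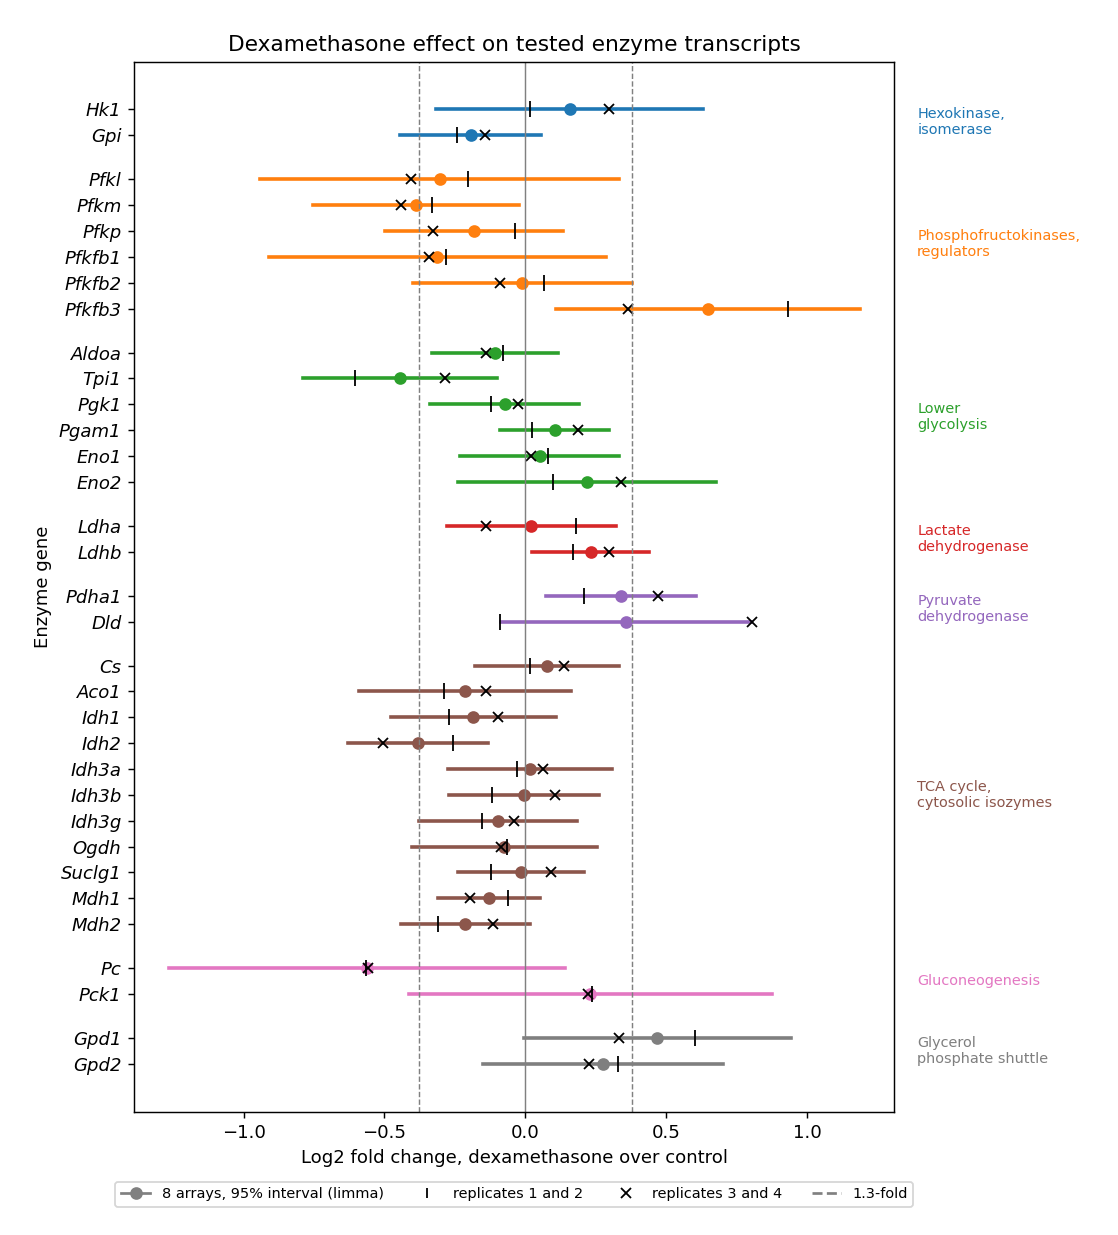
Log2 fold change of dexamethasone over control for the 33 tested enzyme genes, ordered by role; dots are the estimates over 8 arrays with their 95% limma intervals, vertical ticks and crosses the difference within replicates 1 and 2 and within replicates 3 and 4, and dashed lines a 1.3-fold change either way. The estimates lie between -0.56 and 0.65, and 11 of the intervals lie inside the dashed lines.

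A fold of at least 1.3 was reached by 6 members, beside 14.9% of all tested probe sets: Pfkfb3 and Gpd1 were higher (background 7.91%), and Pfkm, Tpi1, Idh2 and Pc were lower (6.98%), of which Pc passed the filter only through its control arrays. The groups did not overlap for 4 members (background 11.0%), with Pfkfb3, Ldhb and Pdha1 higher (background 5.57%) and Idh2 lower (5.46%) on every dexamethasone array. For such a gene the exact permutation test, two-sided, gives p = 0.0286, unadjusted, which is the smallest that 4 against 4 arrays allow. For 11 of 33 members, each by its strongest probe set, the 95% interval lay within 1.3-fold either way, so that a change of that size fell outside it. This compares with 20.0% of all tested probe sets, a share that also counts the weaker probe sets of a gene. The 11 members were Aldoa, Pgk1, Pgam1, Eno1, Ldha, Cs, Idh3a, Idh3b, Idh3g, Suclg1 and Mdh1. Another tested probe set reached beyond 1.3-fold for Pgk1 (-0.50 to 0.18), Cs (-0.15 to 0.46) and Mdh1 (-0.56 to 0.42), so that for these genes such a change was not excluded throughout. For the other 22 members the interval reached beyond 1.3-fold on at least 1 side.

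**Figure D2:**
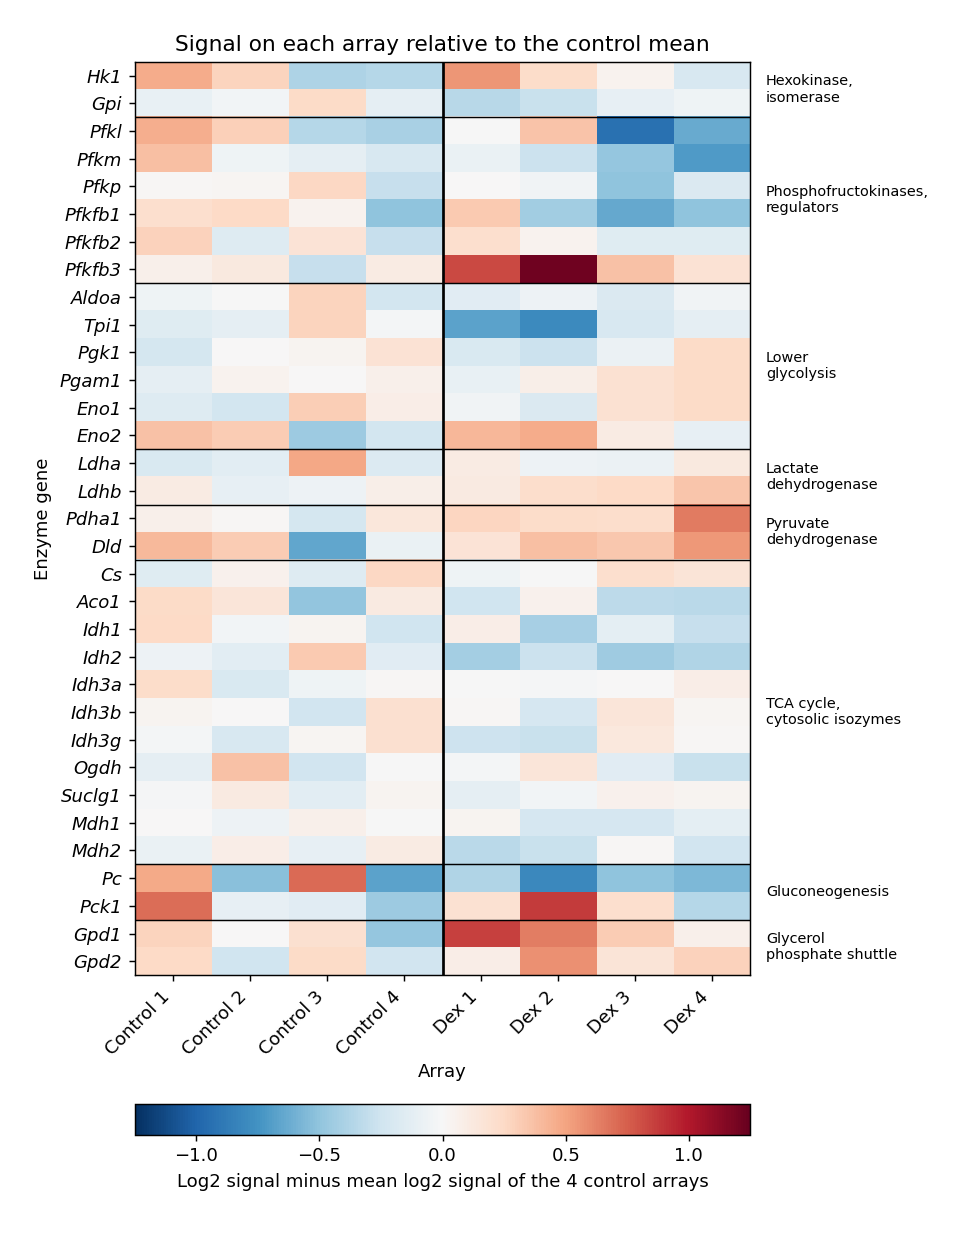
Log2 signal of each of the 33 tested enzyme genes (rows, grouped by role) on each of the 8 arrays (columns), minus the mean log2 signal of the 4 control arrays; red is above and blue below the control mean. Control replicate 3 departs from the other control arrays for Ldha (high) and Dld (low), and Pfkfb3 is red on all 4 dexamethasone arrays.

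At the entry of glycolysis, hexokinase phosphorylates glucose and glucose-6-phosphate isomerase (Gpi) turns the product into fructose-6-phosphate. The signal of Gpi was 1581, 1647, 1995 and 1568 in control replicates 1 to 4 and 1331, 1397, 1574 and 1627 in dexamethasone replicates 1 to 4. These overlap, and the difference was -0.19 on the log2 scale (SE 0.11, 95% interval -0.44 to 0.056, limma adjusted p = 0.46). Hk1 differed by 0.16 (-0.32 to 0.63). Hk2, the insulin-responsive hexokinase of muscle and fat, was not above the silent level on any array, with mean signals of 68.5 in control and 71.6 in dexamethasone, and was under the filter.

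Phosphofructokinase commits glucose to glycolysis, and the bifunctional PFKFB enzymes make and remove fructose 2,6-bisphosphate, its strongest activator. Of the 6 genes of this step, all tested, 5 had a value below 0, beside 5606 of all 10368 tested probe sets, and the median was -0.24. Of the 5, Pfkfb2 was near 0 (-0.010, and 0.22 for a second tested probe set), and Pfkfb1 was not above the silent level on any array. The muscle-type subunit Pfkm had signals of 791, 587, 567 and 531 in control and 579, 506, 436 and 374 in dexamethasone replicates 1 to 4. The only overlap came from dexamethasone replicate 1, which lay above the control arrays 3 and 4, and the group means were 619 ± 117 and 474 ± 88.5 (SD, n = 4 each). The difference was -0.39 on the log2 scale (SE 0.17, 95% interval -0.75 to -0.021, limma adjusted p = 0.281), with -0.33 within the first array set and -0.44 within the second.

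Pfkfb3, the isoform with the highest kinase over phosphatase activity, was the only gene of this step with a value above 0. Its signals were 108, 112, 84.7 and 111 in control and 183, 241, 133 and 117 in dexamethasone replicates 1 to 4. Every dexamethasone array was above every control array, but only 3 dexamethasone arrays and 1 control array were above the silent level, and the means were 104 ± 13.0 and 169 ± 55.8 (SD, n = 4 each). The difference was 0.65 on the log2 scale (SE 0.25, 95% interval 0.11 to 1.19, limma adjusted p = 0.216), with 0.93 within the first array set and 0.37 within the second. A second probe set of Pfkfb3, with a mean of 109 in control and 125 in dexamethasone, differed by 0.19 (limma adjusted p = 0.732) and overlapped. Pfkl, Pfkp, Pfkfb1 and Pfkfb2 differed by -0.30, -0.18, -0.31 and -0.010, each with an interval that included 0, and Pfkfb1 was above the silent level on 0 arrays and reached the filter only in control (121 against 99.3 units).

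From aldolase to enolase, triose phosphates are converted to phosphoenolpyruvate with a net gain of ATP. Tpi1, which interconverts the pair of triose phosphates made by aldolase, had signals of 3728, 3827, 5019 and 4062 in control and 2602, 2375, 3595 and 3813 in dexamethasone replicates 1 to 4. The dexamethasone values lay below all control values except that dexamethasone replicate 4 was above control replicate 1. The means were 4159 ± 590.1 and 3096 ± 714 (SD, n = 4 each), and the difference was -0.44 on the log2 scale (SE 0.16, 95% interval -0.79 to -0.10, limma adjusted p = 0.182). With array set as a blocking factor, the same difference passed (limma adjusted p = 0.0241). It was -0.60 within the first array set and -0.29 within the second, and the sets did not differ past the threshold (limma adjusted p = 0.787). Fitted on replicates 1 and 2 alone, it passed with a limma adjusted p of 0.00657 (background 4.24%), and on replicates 3 and 4 alone the limma adjusted p was 0.484 (background 0.203%).

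The promoter of Tpi1 is shown because it was the one member past the threshold in the fit with array set as a blocking factor. It is the 250 bases before the annotated start, from RefSeq on GRCr8, minus strand, chr4:159305089-159305338, 5' to 3', with matches to the glucocorticoid receptor recognition motif AGAACA (either strand) in capitals.
Tpi1: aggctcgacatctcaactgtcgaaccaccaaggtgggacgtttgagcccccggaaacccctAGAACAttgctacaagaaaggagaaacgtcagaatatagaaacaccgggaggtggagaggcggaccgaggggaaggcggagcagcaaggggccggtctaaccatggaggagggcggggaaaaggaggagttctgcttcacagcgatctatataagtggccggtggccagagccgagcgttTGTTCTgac
The first base of the matches stood at -189 (AGAACA) and -9 (TGTTCT, its reverse complement) from the start. AGAACA on either strand occurred in 17.1% of the 27457 promoters of this length and in 5 of the 37 members with a promoter in that table (all but Pgk1, Idh3a, Pc and Gpd1). The core of the hypoxia response element, ACGTG or GCGTG on either strand, occurred in 19 of 37 members (51.4%) and in 37.9% of all promoters. A match is a description of the letters and says nothing of binding.

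The other enzymes of lower glycolysis had intervals that included 0. Aldolase A (Aldoa) differed by -0.11 (-0.33 to 0.12), phosphoglycerate kinase (Pgk1) by -0.073 (-0.34 to 0.19), phosphoglycerate mutase (Pgam1) by 0.10 (-0.090 to 0.30) and enolase 1 (Eno1) by 0.051 (-0.23 to 0.33), all on the log2 scale with 95% intervals. Neuron-specific enolase (Eno2), above the silent level on all arrays, differed by 0.22 (-0.24 to 0.68). Aldolase C (Aldoc), known from brain, was under the filter and above the silent level on 0 arrays. For Gapdh, the array's control probe sets gave 8144 to 10585 units in control and 8330 to 8630 units in dexamethasone at the 3' end, which overlapped (-0.073 on the log2 scale, exact permutation test, two-sided p = 0.6).

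Lactate dehydrogenase is a tetramer of A and B subunits, of which the A form is known to favour lactate formation and the B form its oxidation. Ldhb had signals of 2068, 1797, 1840.3 and 2022 in control and 2088, 2248, 2295 and 2446 in dexamethasone replicates 1 to 4. The groups did not overlap, although dexamethasone replicate 1 lay just above control replicate 1, and the difference was 0.23 on the log2 scale (SE 0.095, 95% interval 0.025 to 0.44, limma adjusted p = 0.256). Ldha had signals of 6473, 6735, 10336 and 6553 in control and 7928, 7066, 6993 and 7998 in dexamethasone replicates 1 to 4. Control replicate 3 was the highest of all 8 arrays, the means of 7524 and 7496 were nearly equal, and the difference was 0.021 (-0.28 to 0.32).

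The pyruvate dehydrogenase complex links glycolysis to the TCA cycle. Pdha1, its E1 alpha subunit and the target of the regulatory kinases, had signals of 2069, 2000.4, 1702 and 2181 in control and 2383, 2322, 2304 and 3099.8 in dexamethasone replicates 1 to 4. All dexamethasone arrays were above all control arrays, with means of 1988 ± 205 and 2527 ± 383 (SD, n = 4 each). The difference was 0.34 on the log2 scale (SE 0.12, 95% interval 0.075 to 0.61, limma adjusted p = 0.186), with 0.21 within the first array set and 0.47 within the second. A second, dimmer probe set of Pdha1 gave 304, 299.6, 177 and 234 in control and 459, 394, 318 and 401 in dexamethasone replicates 1 to 4. It did not overlap either and differed by 0.65 (SE 0.19, limma adjusted p = 0.103), past the threshold with array set as a blocking factor (limma adjusted p = 0.0275).

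Dihydrolipoamide dehydrogenase (Dld), the E3 subunit shared with the oxoglutarate dehydrogenase complex, had signals of 947, 890.0, 456 and 673 in control and 804, 926, 902 and 1039.8 in dexamethasone replicates 1 to 4. Control replicate 3 was the lowest array, and the groups overlapped. The difference was 0.36 on the log2 scale (SE 0.20, 95% interval -0.087 to 0.80, limma adjusted p = 0.436), with -0.090 within the first array set and 0.81 within the second, and it was 0.14 without control replicate 3. The sets differed by 0.90 (limma adjusted p = 0.787), and Dld was the only member whose difference between the sets had an unadjusted p under the 0.05 level, beside 5.66% of all probe sets.

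The TCA cycle oxidizes acetyl groups in the mitochondria. Of the 11 tested genes of the cycle and its cytosolic isozymes, all were above the silent level on every array. A value below 0 was found for 9, beside 5606 of all 10368 tested probe sets, and the median was -0.096. Of the 9, Idh3b (-0.0052) and Suclg1 (-0.015) were near 0. Mitochondrial NADP-dependent isocitrate dehydrogenase (Idh2), which supplies NADPH to the mitochondrial matrix, had signals of 3284, 3133, 4298 and 3100.0 in control and 2548, 2835, 2509 and 2636 in dexamethasone replicates 1 to 4. Every dexamethasone array was below every control array, with means of 3454 ± 568 and 2632 ± 146 (SD, n = 4 each). The difference was -0.38 on the log2 scale (SE 0.11, 95% interval -0.63 to -0.13, limma adjusted p = 0.109), the smallest adjusted p of the members, with -0.26 within the first array set and -0.51 within the second. Left without control replicate 3, the highest of the control arrays, it was -0.27 (limma adjusted p = 0.128).

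The NAD-dependent isocitrate dehydrogenase, which runs the cycle itself, differed by 0.017 (-0.28 to 0.31) for Idh3a, -0.0052 (-0.27 to 0.26) for Idh3b and -0.096 (-0.38 to 0.18) for Idh3g. Cytosolic Idh1 differed by -0.18 (-0.48 to 0.11) and cytosolic aconitase (Aco1), which doubles as an iron sensor, by -0.21 (-0.59 to 0.16). Citrate synthase (Cs) differed by 0.078 (-0.18 to 0.33), oxoglutarate dehydrogenase (Ogdh) by -0.075 (-0.40 to 0.25) and the succinyl-CoA ligase subunit Suclg1 by -0.015 (-0.24 to 0.21). Malate dehydrogenase differed by -0.13 (-0.31 to 0.052) for the cytosolic Mdh1 and -0.21 (-0.44 to 0.016) for the mitochondrial Mdh2. All these intervals included 0.

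**Figure D3:**
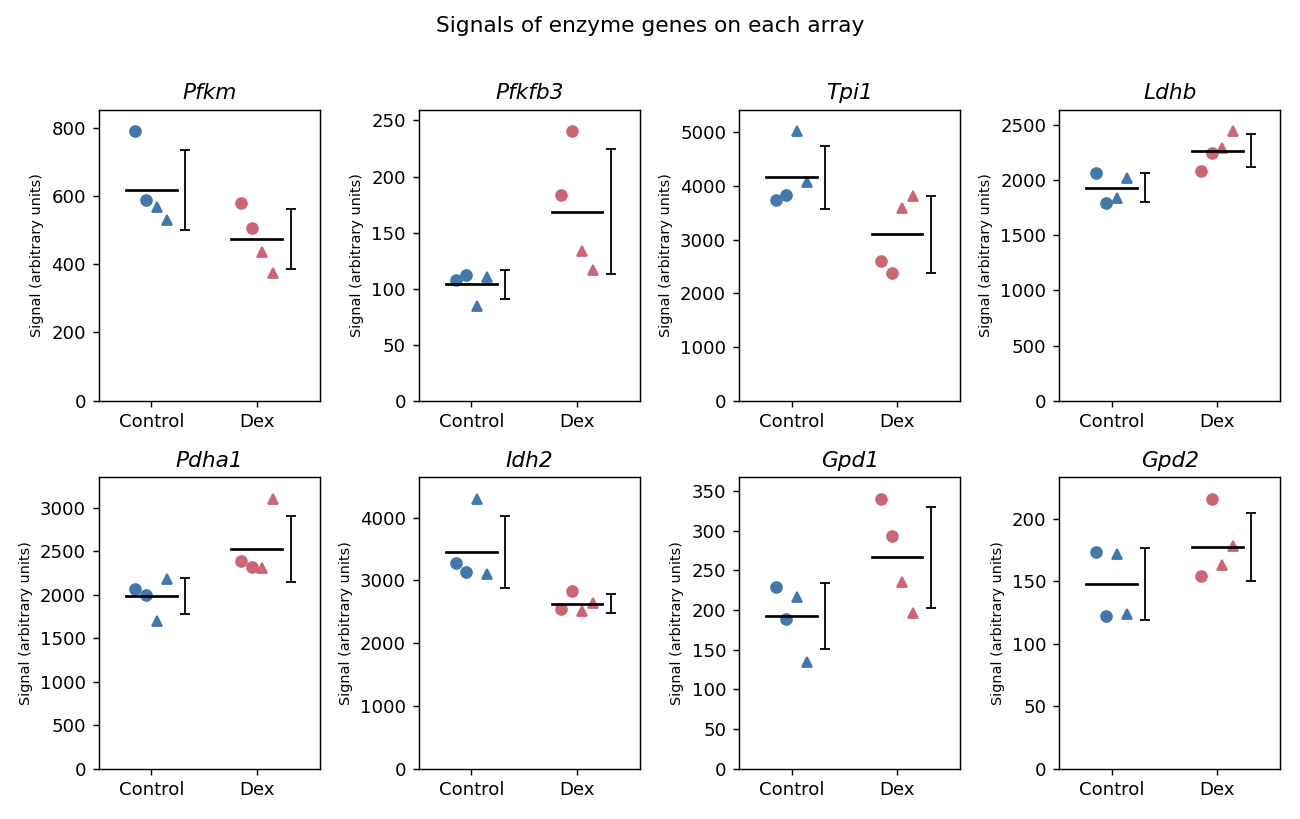
Rescaled signal (arbitrary units) of 8 of the enzyme genes on each array, control in blue and dexamethasone in red, with circles for replicates 1 and 2, triangles for replicates 3 and 4, horizontal lines for the means and bars for 1 SD. Pfkfb3, Ldhb, Pdha1 and Idh2 show no overlap between the groups, and the other panels do.

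The measured members listed under gluconeogenesis, Pc, Pck1 and Fbp1, were near or below the silent level. G6pc3 and Slc37a4 of the glucose-6-phosphatase system were above it on all 8 arrays. Pck2, the other phosphoenolpyruvate carboxykinase gene and not a member, passed the filter with both of its 2 probe sets. Pyruvate carboxylase (Pc), which makes oxaloacetate from pyruvate, had signals of 168, 84.4, 199 and 76.4 in control and 93.4, 69.4, 85.3 and 82.0 in dexamethasone replicates 1 to 4. Control replicates 1 and 3 were high, the other control arrays lay within the dexamethasone range, and those 2 were the only arrays above the silent level. Pc thus passed the filter only through control (mean 132, against 82.5 in dexamethasone), its difference did not pass the test (limma adjusted p = 0.441), and its size, the low end of the range given above, was measured against signals not above the silent level. Cytosolic phosphoenolpyruvate carboxykinase (Pck1), a textbook glucocorticoid target of liver, had signals of 223, 128, 125 and 101 in control and 157, 252, 159 and 108 in dexamethasone replicates 1 to 4. The groups overlapped, 3 of 8 arrays were above the silent level, and the difference was 0.23 on the log2 scale (SE 0.30, 95% interval -0.41 to 0.87, limma adjusted p = 0.763), and 0.015 without dexamethasone replicate 2 to 0.46 without control replicate 1. Fructose bisphosphatase (Fbp1) was under the filter, with means of 62.0 in control and 52.0 in dexamethasone and 0 arrays above the silent level.

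In the glycerol phosphate shuttle, cytosolic Gpd1 reduces dihydroxyacetone phosphate to glycerol-3-phosphate and mitochondrial Gpd2 oxidizes it again. Gpd1 had signals of 229, 189, 216 and 134 in control and 339.7, 294, 235 and 196 in dexamethasone replicates 1 to 4. In the first array set both dexamethasone arrays were above both control arrays, but dexamethasone replicate 4 lay below control replicates 1 and 3. The difference was 0.47 on the log2 scale (SE 0.22, 95% interval -0.0054 to 0.94, limma adjusted p = 0.319). It was 0.60 within the first array set and 0.33 within the second. With array set as a blocking factor and control replicate 3 left out, it was 0.63 and passed (limma adjusted p = 0.0242). Gpd2 differed by 0.28 (-0.15 to 0.70) and was above the silent level on 6 of 8 arrays, while its second probe set differed by -0.15, the other direction.

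Around the members, 56 further genes of the same and adjoining pathways were listed, of which 50 had a probe set and 42 were tested. Of these, 1 rose and 0 fell, beside 1.88% and 0.81% of all probe sets, and with array set as a blocking factor 2 were higher (Gpd1l and Pdk2, background 3.32%) and 3 lower (Pgm1, Me1 and Slc16a3, background 2.26%). Gpd1l, a cytosolic relative of Gpd1 that is named Gpd1l1 in the current rat annotation and oxidizes glycerol-3-phosphate with NAD, was the one that rose. Its signals were 484, 518, 479 and 503 in control and 1318, 1369, 1371 and 1361 in dexamethasone replicates 1 to 4. The groups lay far apart against a spread of 17.8 (SD, control) and 25.0 (SD, dexamethasone), with means of 496 and 1355, a 2.73-fold difference. It was 1.45 on the log2 scale (SE 0.097, 95% interval 1.24 to 1.66, limma adjusted p = 1.10e-05), with 1.42 within the first array set and 1.48 within the second, and with the beta-actin 3'/5' ratio as a covariate it was 1.41. Beside it, Gpd1 at 0.47 and Gpd2 at 0.28 did not pass, and the differences between these genes were not tested.

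**Figure D4:**
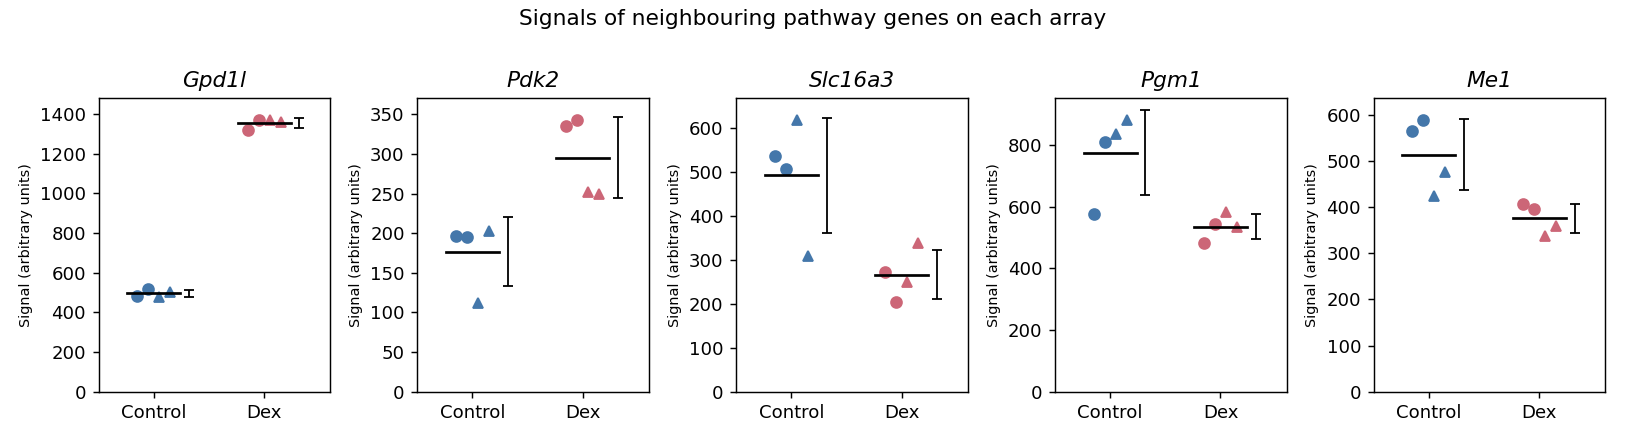
Rescaled signal (arbitrary units) of 5 other pathway genes on each array, control in blue and dexamethasone in red, with circles for replicates 1 and 2, triangles for replicates 3 and 4, horizontal lines for the means and bars for 1 SD. Gpd1l is at 479 to 518 in control and 1318 to 1371 in dexamethasone, and Pdk2 and Me1 also show no overlap.

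The Gpd1l promoter is shown because Gpd1l was the pathway gene past the threshold, and it was chosen after its values were seen. It is the 250 bases before the annotated start, from RefSeq on GRCr8, minus strand, chr8:123498949-123499198, 5' to 3', with GCGTG in capitals.
Gpd1l: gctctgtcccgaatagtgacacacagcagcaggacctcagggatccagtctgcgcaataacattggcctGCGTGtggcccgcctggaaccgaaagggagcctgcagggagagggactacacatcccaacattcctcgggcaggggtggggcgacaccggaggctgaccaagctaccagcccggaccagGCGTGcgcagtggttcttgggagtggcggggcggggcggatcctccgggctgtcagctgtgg
GCGTG stood at -181 and -62 from the start and occurs on either strand in 27.2% of all promoters. AGAACA was not among these letters, which says nothing of the receptor.

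Pdk2 encodes a kinase that inactivates the pyruvate dehydrogenase complex by phosphorylating its E1 alpha subunit. Its signals were 197, 195, 112 and 203 in control and 335, 343, 252 and 249.6 in dexamethasone replicates 1 to 4. The groups did not overlap, and control replicate 3 was the lowest array. The difference was 0.76 on the log2 scale (SE 0.21, 95% interval 0.29 to 1.23, limma adjusted p = 0.0906), past the threshold with array set as a blocking factor (limma adjusted p = 0.0319).

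Slc16a3, the monocarboxylate transporter known for lactate export, had signals of 535, 505, 618 and 309 in control and 272, 204, 250.5 and 338 in dexamethasone replicates 1 to 4. Control replicate 4 was below dexamethasone replicate 4, and the difference was -0.86 on the log2 scale (SE 0.22, 95% interval -1.34 to -0.39, limma adjusted p = 0.062), past the threshold with array set as a blocking factor (limma adjusted p = 0.0477). It was -1.14 within the first array set and -0.59 within the second. Phosphoglucomutase 1 (Pgm1), at the branch to glycogen, had signals of 576, 809, 838 and 882 in control and 483, 544, 583 and 535 in dexamethasone replicates 1 to 4. Control replicate 1 alone reached into the dexamethasone range, and the difference was -0.52 on the log2 scale (SE 0.15, 95% interval -0.84 to -0.20, limma adjusted p = 0.0912) and passed with the block (limma adjusted p = 0.0384). Cytosolic malic enzyme (Me1), a source of NADPH, had signals of 565, 589, 425 and 476 in control and 408, 397, 338 and 359 in dexamethasone replicates 1 to 4. No dexamethasone array reached a control array, and the difference was -0.44 on the log2 scale (SE 0.14, 95% interval -0.75 to -0.14, limma adjusted p = 0.128), past the threshold with the block (limma adjusted p = 0.0339).

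The beta-actin 3'/5' ratio did not overlap between the groups. The Gapdh 3'/5' ratio did, at 2.10 to 3.79 in control and 2.14 to 3.18 in dexamethasone. Their part in these differences was not tested beyond a fit with the beta-actin ratio as a covariate. In that fit the difference was over 1.5 times smaller for 10 of the 33 members, over 1.5 times larger for 7, and of the other sign for 7. It shrank to 0.12 for Pdha1, -0.19 for Idh2 and -0.27 for Tpi1 and turned to -0.20 for Dld. It grew to -0.70 for Pfkl, -0.57 for Aco1, 0.32 for Ldha and 0.29 for Eno1. None of the 33 members passed the threshold in it.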

How the data were processed

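Gene expression was measured on Affymetrix rat arrays in 4 control and 4 dexamethasone samples. The authors extracted total RNA, amplified it in 2 cycles of in vitro transcription and deposited signal intensity values on a linear scale, per the labels made with the Affymetrix algorithm and a target of 500. The trimmed means showed that this target was met on 4 arrays only, so each array was rescaled to a 2% trimmed mean of 500 here. Values under 16 were set to 16 and log2 was taken. Of 15923 probe sets, 57 controls were left out, and 12783, 312 and 2771 of the others were annotated to 1 gene, several genes and no gene. Symbols came from the platform annotation, updated through RefSeq.

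The 10368 probe sets with a mean of at least 100 were tested with limma 3.58.1 (lmFit, eBayes with trend) in R 4.3.3, two-sided, with Benjamini-Hochberg adjustment at 0.05. The method was tested on simulated data with 4 arrays against 4 and 200 changed probe sets. It recovered 7.6% of the 1.3-fold and 81.7% of the 2-fold changes, so that most changes of 1.3-fold did not pass there. The number of arrays limits the precision. Array set was used as a block, within-set values and their difference were fitted, and other settings are given in the closing section. Silent level was set from 48 of 54 listed genes of other tissues. Promoters came from RefSeq. Proteins were not analysed here.

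Array values and full statistics are given for members past the threshold (also with the block), those with an unadjusted p under 0.05, and the member with the largest fold change of each role. Of each other pathway list, the genes past the threshold are named, or else the 3 with the smallest p. Pck1, Ldha and the second Pdha1 probe set were added after their values were seen. The members and lists were chosen with earlier results of these data known.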

Additional observations from a re-analysis of the deposited data

Results flagged for a closer look

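Array values that stood apart from the other 3 of their group, by Dixon's test, were found in 5 of the 88 groups checked, where chance gives about 5%. Pfkfb3 was at 84.7 in control replicate 3, against 108 to 112 on the other control arrays. Ldha was at 10336 in control replicate 3, against 6473 to 6735. Pdk2 was at 112 in control replicate 3, against 195 to 203. Pdha1 was at 3099.8 in dexamethasone replicate 4, against 2304 to 2383. Egln3 was at 1942 in dexamethasone replicate 4, against 1047 to 1152. Control replicate 3 also had the highest beta-actin 3'/5' ratio, 13.7, whose part in these values was not tested.

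The effect of dexamethasone differed between the array sets for Dld, by 0.90 on the log2 scale (replicates 3 and 4 minus replicates 1 and 2, limma adjusted p = 0.787), and for Taldo1, by -0.65 (limma adjusted p = 0.787). Both had an unadjusted p under 0.05, and neither passed after adjustment over all probe sets.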

How the results depend on the processing

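Of 1070 comparisons of 45 results with an alternative, 999 kept direction and side of the threshold, 22 came past the threshold, 0 lost it, and 49 turned direction, in 16 results whose main value was at most 0.36 in size. Gpd1l passed under 24 of 24 alternatives (1.41 to 1.61, highest limma adjusted p 0.0307). The count of members past the threshold, 0, was 1 (Tpi1) with array set as a blocking factor, 1 (Tpi1) in replicates 1 and 2 alone and, chosen after seeing the data, 3 (Tpi1, Idh2 and Gpd1) with that block and without control replicate 3; leaving out each array in turn gave 0 throughout. The count of members with a fold of at least 1.3, 6, was 3 with a filter of 250, which tested 25 members, and 4 to 8 when each array was left out (4 without control replicate 3).

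With the replicate number as a block, 1 member passed (Tpi1, limma adjusted p = 0.0446) and 484 of all probe sets, against 279. The correlation of deviations between same-numbered samples was 0.35, 0.25, 0.035 and 0.41, so that the numbers were not taken to pair the samples, and control replicates 1 to 4 did not all correlate best with their own number.

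All probe sets past the threshold numbered 38 with signals as deposited, 102 without a filter, 578 with array set as a blocking factor, 440 in replicates 1 and 2, 21 in replicates 3 and 4, 65 with the beta-actin covariate, 779 with the array block and without control replicate 3, and 180 to 275 when each array was left out. Signals as deposited moved the median of all probe sets from -0.023 to 0.14. There, 22 members were above 0, against 14, and values turned to 0.15 for Pfkfb2, 0.055 for Aldoa, 0.090 for Pgk1, 0.16 for Idh3b, 0.067 for Idh3g, 0.089 for Ogdh, 0.15 for Suclg1 and 0.035 for Mdh1. Median centring gave 0.00024 for Idh3b. With the beta-actin covariate, values turned to -0.098 for Hk1, 0.10 for Pfkfb2, 0.014 for Aldoa, -0.11 for Eno2, -0.20 for Dld, -0.0035 for Cs, -0.020 for Idh3a and 0.085 for Taldo1. Replicates 1 and 2 gave 0.068 for Pfkfb2, -0.090 for Dld, -0.030 for Idh3a and 0.11 for Taldo1; replicates 3 and 4 gave -0.14 for Ldha, 0.11 for Idh3b and 0.090 for Suclg1. The mean of all probe sets gave 0.10 for Pfkfb2. The array block without control replicate 3 gave 0.098 for Pfkfb2, -0.019 for Cs and -0.0061 for Idh3a. Leaving out each array in turn gave -0.11 to 0.085 for Pfkfb2, -0.027 to 0.15 for Eno1, -0.041 to 0.18 for Ldha, -0.046 to 0.094 for Idh3a, -0.086 to 0.062 for Idh3b, -0.15 to 0.046 for Ogdh and -0.059 to 0.022 for Suclg1. Leaving out 1 array turned or moved by over 1.5 times 25 of the 33 members, none of them past the threshold; of those described by array, Pc was at -0.33, Dld at 0.14 and Gpi at -0.11 without control replicate 3, Gpd1 at 0.31 without control replicate 4, and Pck1 at 0.015 to 0.46. The causes were not tested. Signals near the silent level (Pfkfb1, Pfkfb3, Pc, Pck1 and Gpd2) limit what can be read for those genes.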

Other observations

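Among the further pathway genes, the oxidative and non-oxidative pentose phosphate enzymes, which make NADPH and ribose, showed 0 of 6 tested genes past the threshold (limma, against 2.69% of all probe sets), 1 of 6 at an unadjusted p under 0.05 (against 16.1%), and a median of -0.18 on the log2 scale. The 3 with the smallest p were transketolase (Tkt) at a log2 difference of -0.32 (-0.61 to -0.027), Pgls at -0.27 (-0.55 to 0.0076) and transaldolase (Taldo1) at -0.21 (-0.56 to 0.13).

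Of 12 listed hypoxia-inducible genes outside glycolysis, 11 were tested and 0 passed the threshold (limma, against 2.69% of all probe sets), with 2 at an unadjusted p under 0.05, near the background of 16.1%, and a median of 0.041. The groups did not overlap for 3 of the 11, against 11.0% of all probe sets. Egln3, an oxygen-sensing prolyl hydroxylase, had signals of 762, 855, 962 and 821 in control and 1047, 1152, 1109 and 1942 in dexamethasone replicates 1 to 4. Every dexamethasone array was above every control array, and the difference was 0.58 on the log2 scale (SE 0.18, 95% interval 0.19 to 0.98, limma adjusted p = 0.125). Bnip3, a mitochondrial protein of mitophagy, was at 0.29 (0.073 to 0.51), also without overlap, and the collagen prolyl hydroxylase subunit P4ha1 was at -0.18 (-0.39 to 0.032), lower on every dexamethasone array.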
